A study of Caenorhabditis elegans with 3 samples.

Results

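The F-box A class of Caenorhabditis elegans comprises genes with the symbol fbxa and a number. Its members were taken here as the probes that the platform annotation pairs with exactly 1 such gene. This gave 143 probes for 133 genes, out of 14943 named genes with a probe on the array, and the current RefSeq gene table lists 222 fbxa genes in all. Of the 133 genes, 106 are protein-coding and 27 are pseudogenes by the RefSeq entries. A further 2 probes were each shared by a pair of fbxa genes and were set aside.

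Each of the samples was RNA from glp-4 worms of the L3 stage, the third larval stage, hybridised on 3 two-colour arrays with RNA of a wild-type mixed reference. Each array carried 1 preparation, named prep 1, prep 3 and prep 4, and the same reference source was used on each. A valyl-tRNA synthetase is the product of glp-4, and worms with temperature-sensitive alleles of it make few germ cells, although the labels give neither the allele nor the growth temperature, and they do not say what stages the mixed reference held. Genotype and stage therefore differ together between the glp-4 RNA and the reference RNA on each array. Nothing says whether the preps came from separate cultures, so that p-values measure only the spread between these 3 arrays.

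F-box proteins are the substrate-binding parts of SCF ubiquitin ligases. The F-box binds an SKP1-related protein, which ties it to a cullin and a RING subunit, while the rest of the protein holds the target that is to be marked with ubiquitin. In C. elegans the F-box family is greatly expanded, many members lie side by side in the genome, and the class evolves fast. Proteins of the F-box A class also carry the FTH domain, named for homology to FOG-2, an F-box protein that promotes sperm formation in the hermaphrodite germ line. FBXA-75 and FBXA-158 are known partners of the cullin CUL-6 in a ligase that acts in the response to intracellular pathogens and in tolerance of heat.

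Values are log2 ratios centred on the median of each array with positive values taken as higher in glp-4 L3. The labels do not name the dyes, so this direction is likely rather than stated. If it were the other way, every direction given here would turn. Of the marker lists, germ line genes were lower for 8 of 8, with list medians of -2.75, -2.59 and -3.12 on preps 1, 3 and 4, and sperm genes for 4 of 4. Intestinal genes were higher for 5 of 5, with a median of 2.42, and muscle genes for 3 of 3, while 1 of 4 cuticle genes was higher and none of 4 neuronal genes passed. The cuticle list had medians of 1.65, 0.66 and -0.06 on preps 1, 3 and 4, and its genes did not share a pattern over the arrays. Prep 1 stood apart in col-19, a collagen gene, at 1.83, -2.78 and -3.06, and in bli-1, another, at 3.66, 0.46 and 0.11. It did not in dpy-7, at 0.96, 0.86 and -0.23, or in rol-6, at 1.46, 1.65 and 1.15. The part of these shifts in the values of the fbxa genes was not tested, and in whole animals fewer cells of a type and less RNA per cell cannot be told apart. The spread of the log2 ratios over all probes grew from 0.71 with prep 1 to 0.963 with prep 3 and 1.14 with prep 4.

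F-box A genes moved in both directions. Of 132 genes measured on all 3 arrays, 17 were higher in glp-4 L3 and 10 were lower (limma, Benjamini-Hochberg adjusted p under 0.05 over all 19580 features), and 105 did not pass. The higher share was 12.9% of the class, against 8.26% of all features and 9.62% of named genes. The lower share was 7.58%, against 8.37% of all features and 8.72% of named genes, which is close to the background. In both directions together 20.5% of the class passed, against 16.6% of all features. No test of these shares against the rest of the array was made, and the class is described by its counts. The median log2 ratio of the class was 0.15, beside 0.00 for all features and 0.03 for named genes. It was 0.11, 0.19 and 0.28 on preps 1, 3 and 4. The mean lay above 0 for 83 of 132 genes.

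The counts depended on which preps were kept. Without prep 1 there were 32 higher and 18 lower fbxa genes, and 27 of the 27 calls were kept. Over all features there were then 3211 higher and 3464 lower, against 1617 and 1638 with all preps. Without prep 4, where 133 genes were tested, there were 6 higher and 4 lower, with 9 of the 27 calls kept. Without prep 3, 1 higher gene, fbxa-59, and no lower gene passed in limma, beside 18 higher and 11 lower at an unadjusted p under 0.05. Of all features, 174 passed as higher and 212 as lower without prep 3. The counts of all features without prep 4 lay between these and those without prep 1. In a test against a 2-fold change no fbxa gene passed in either direction, beside 6 higher and 4 lower at an unadjusted p under 0.05. In that test 157 features passed as higher and 178 as lower. For counts at an unadjusted p, no share of all features is given here or below.

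**Figure D1:**
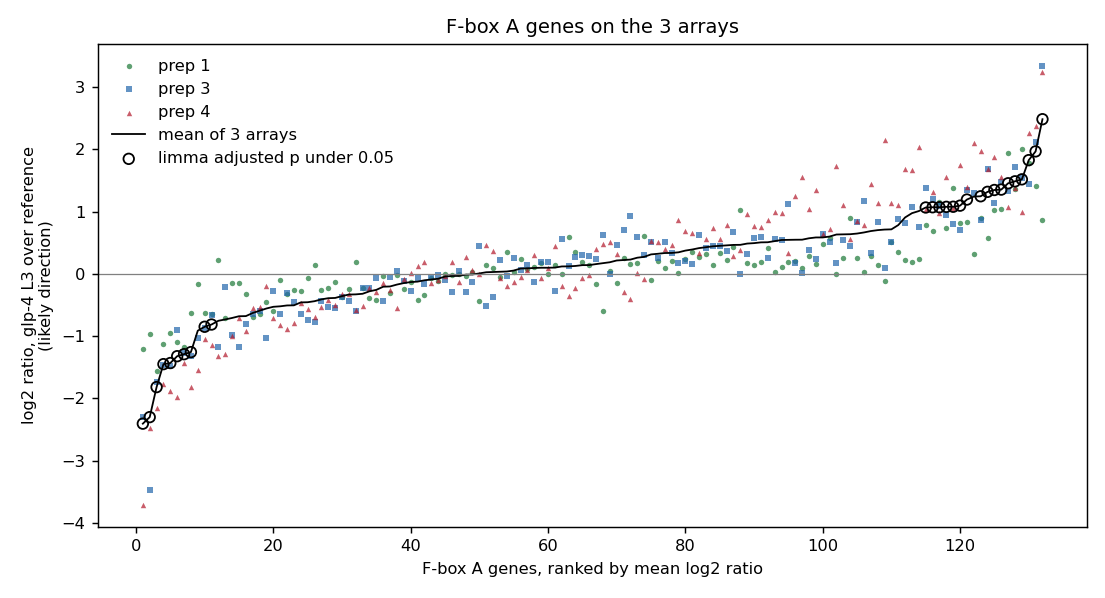
Log2 ratio of glp-4 L3 over reference (y axis, likely direction) for the 132 F-box A genes measured on all 3 arrays, ranked by their mean (x axis). Coloured points are the 3 arrays, the line is the mean, and open circles mark the 17 higher and 10 lower genes with a limma adjusted p under 0.05; prep 1 is the array nearest 0 for 19 of these 27 genes.

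The gene farthest above the reference was fbxa-72 (F31F4.15). Its log2 ratios were 0.87, 3.34 and 3.25 on preps 1, 3 and 4, a mean of 2.49 ± 1.40 (SD, n = 3), which is 5.60-fold (limma adjusted p = 0.0326). All 3 arrays were above 0, and prep 1 stood well below the others. This was the largest SD in the class, and the 95% interval of the mean ran from 1.18 to 3.79.

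Next came fbxa-166 (C08E3.9), at 1.41, 2.11 and 2.38 on preps 1, 3 and 4, with a mean of 1.97 ± 0.50 and a 3.91-fold difference (adjusted p = 0.00769 by limma). The gene fbxa-59 (T12B5.8) was at 1.78, 1.44 and 2.26, with a mean of 1.83 ± 0.42 (adjusted p = 0.00722 by limma). Both were more than 2-fold higher on each array. Of fbxa-72, fbxa-166 and fbxa-59, the last was the only one to pass without prep 3, and fbxa-166 and fbxa-59 passed without prep 4.

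A second tier lay near 1.5. The gene fbxa-60 (T12B5.10) was at 2.01, 1.55 and 1.00, fbxa-51 (T12B5.1) at 1.36, 1.72 and 1.38, and fbxa-156 (C06H5.1) at 1.95, 1.34 and 1.08 on preps 1, 3 and 4. For fbxa-60 and fbxa-156 the highest value was the one with prep 1, the reverse of fbxa-72. Their means were 1.52 ± 0.51, 1.49 ± 0.20 and 1.46 ± 0.45, and limma gave adjusted p = 0.0147 for fbxa-60, 0.00703 for fbxa-51 and 0.0137 for fbxa-156. These 3 passed without prep 4 as well, but none of them passed without prep 3. When each array was brought to 1 common median absolute deviation, fbxa-60 (limma adjusted p = 0.0696) and fbxa-156 (limma adjusted p = 0.0711) did not pass.

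The other higher genes covered by the naming rule had means between 1.10 and 1.35. Over its 2 probes fbxa-105 (C02H6.2) was at 1.04, 1.47 and 1.55, and fbxa-31 (ZC47.5) was at 1.02, 1.15 and 1.88 on preps 1, 3 and 4. The values of fbxa-182 (F42G2.4) were 0.58, 1.69 and 1.69, and those of fbxa-64 (T28A11.21) were 0.83, 1.35 and 1.40. In these 4 genes prep 1 was the lowest array and none fell below 0, though for fbxa-105 this holds for the average and not for each probe. The genes fbxa-82 (C25D7.4), at 0.89, 0.87 and 1.98, and fbxa-84 (T09F5.11), at 0.82, 0.71 and 1.75, had their highest values on prep 4. The remaining 5 higher genes had means from 1.07 to 1.08. All 17 kept the same sign on the 3 arrays, and 7 of them were at least 2-fold higher on each.

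At the other end, fbxa-215 (Y45F10C.3) was at -1.20, -2.30 and -3.71 on preps 1, 3 and 4, a mean of -2.41 ± 1.26 (limma adjusted p = 0.0272). The ratio of fbxa-206 (Y102A5C.1) was -0.96, -3.47 and -2.48, a mean of -2.30 ± 1.26 (limma adjusted p = 0.0313). Both lay below 0 on each array and closest to 0 with prep 1. They were 5.30-fold and 4.93-fold lower by their means, and their SDs were the next largest after that of fbxa-72.

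Lower genes with less spread were fbxa-164 (C08E3.7), at -1.56, -1.74 and -2.16, and fbxa-24 (F54D10.2), at -1.17, -1.27 and -1.43. The mean of fbxa-164 was -1.82 ± 0.31 and it was 3.53-fold lower (limma adjusted p = 0.00593, the smallest in the class). That of fbxa-24 was -1.29 ± 0.13 (limma adjusted p = 0.00868). These genes differed little between arrays, and both passed without prep 4 but not without prep 3.

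The values of fbxa-197 (T06C12.4) were -1.12, -1.46 and -1.77 on preps 1, 3 and 4, and those of fbxa-114 (Y113G7B.7) were -0.94, -1.47 and -1.88. The gene fbxa-108 (F59A1.7) was at -1.09, -0.90 and -1.97, and fbxa-181 (F35E12.3) at -0.63, -1.32 and -1.82. In each of these 4 prep 4 was the lowest array. The smallest passing means were those of fbxa-163 (C08E3.6), -0.85 ± 0.21, and fbxa-207 (Y102A5C.3), -0.81 ± 0.28. The gene fbxa-207 was the single pseudogene among the 27 that passed. All 10 lower genes were below 0 on each of the 3 arrays, and 4 were at least 2-fold lower on each.

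The threshold fell within a closely spaced group of genes. Just inside it were fbxa-207 (limma adjusted p = 0.0415) and fbxa-84 (limma adjusted p = 0.0436). Just outside were fbxa-145 (F48C1.2), at -0.70, -0.64 and -0.55 (limma adjusted p = 0.0545), and fbxa-37 (ZC47.14), at 0.36, 0.89 and 1.11 (limma adjusted p = 0.06). Signs were the same on all 3 arrays for these 4 genes. At an unadjusted p under 0.05 the class held 37 higher and 23 lower genes, without a share of all features at that cut to set beside them.

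Among genes that did not pass, the highest means were those of fbxa-115 (Y113G7B.3), at 0.31, 1.30 and 2.11, fbxa-99, at 0.24, 0.75 and 2.04, and fbxa-216 (Y47H9C.10), at 0.18, 1.08 and 1.67. Each was near 0 with prep 1 and highest with prep 4. The next were fbxa-187, fbxa-37 and fbxa-58, with means of 0.91, 0.78 and 0.72. The lowest means that did not pass were those of fbxa-165, at -0.16, -1.03 and -1.55, fbxa-149, at 0.23, -1.18 and -1.31, and fbxa-154, at -0.70, -0.21 and -1.28 over its 2 probes. The ratio of fbxa-149 changed sign between prep 1 and the other arrays. The remaining 3 at that end, fbxa-161, fbxa-214 and fbxa-121, had means of -0.71, -0.68 and -0.68. The gene fbxa-196 (T05H4.2), whose SD was the fourth largest in the class at 1.25, was at -0.12, 0.10 and 2.15, so that its mean of 0.71 rested on prep 4 and was -0.0077 without it. Of these 12 genes with the highest and lowest means, 11 passed when prep 1 was left out, all but fbxa-154. The 12 were picked for large means in the same values, and 3211 higher and 3464 lower features passed without prep 1. For example fbxa-115 was then at 1.71 (limma adjusted p = 0.00699), fbxa-149 at -1.25 (limma adjusted p = 0.00699) and fbxa-165 at -1.29 (limma adjusted p = 0.00981). Several means moved by over 1.5 times toward 0 without prep 4, to 0.81 for fbxa-115, 0.49 for fbxa-99, 0.63 for fbxa-216 and 0.52 for fbxa-187. At the lower end they moved to -0.59 for fbxa-165, -0.47 for fbxa-149 and -0.46 for fbxa-154, and without prep 3 to -0.43 for fbxa-214. None of these passed there. Of the 105 genes that did not pass, 67 had means within 0.5 of 0.

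Of the known partners of CUL-6, fbxa-75 had no single-gene probe. The other, fbxa-158 (C08E3.10), was at 0.57, 0.51 and 0.72, a mean of 0.60 ± 0.11. It was above 0 on each array and did not pass (limma adjusted p = 0.063, with a 95% interval of 0.19 to 1.01).

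The arrays were compared gene by gene, as a description. For 95 of 132 fbxa genes (72.0%) the 3 arrays had the same sign, 58 above and 37 below, against 58.4% of all features. The median SD over the arrays was 0.32 for the class and 0.31 for all features. Across the 132 genes, the Pearson correlation was 0.76 between preps 1 and 3, 0.73 between preps 1 and 4, and 0.85 between preps 3 and 4. Over all features it was 0.66, 0.61 and 0.84. The arrays share their reference RNA and genes are not independent replicates. Of the 27 fbxa genes that passed, 19 had their smallest size of ratio with prep 1 (70.4%), as had 61.5% of all features that passed. The array titles set prep 1 apart from preps 3 and 4, both by their letters and by a date, and the labels do not say what either stands for. The 32 higher and 18 lower genes without prep 1 are the values from the arrays that share both.

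The calls were then set beside the gene type. All 17 higher genes were among the 105 protein-coding genes tested, of which 9 were lower, and of 27 pseudogenes none was higher and 1 was lower by limma. By the same adjusted p, 8.26% of all features were higher and 8.37% lower. At an unadjusted p under 0.05, a cut for which no share of all features is given, 5 pseudogenes were higher and 5 lower. The median log2 ratio was 0.22 for protein-coding genes, at 0.14, 0.22 and 0.38 on preps 1, 3 and 4, and -0.04 for pseudogenes, at 0.01, 0.05 and -0.23. The middle 50% of protein-coding genes ran from -0.20 to 0.64 and that of pseudogenes from -0.43 to 0.30, so the ranges overlapped. The difference between these groups was not tested. The pseudogene with the highest mean was fbxa-187 (F47H4.7), at 0.22, 0.82 and 1.68 (mean 0.91).

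**Figure D2:**
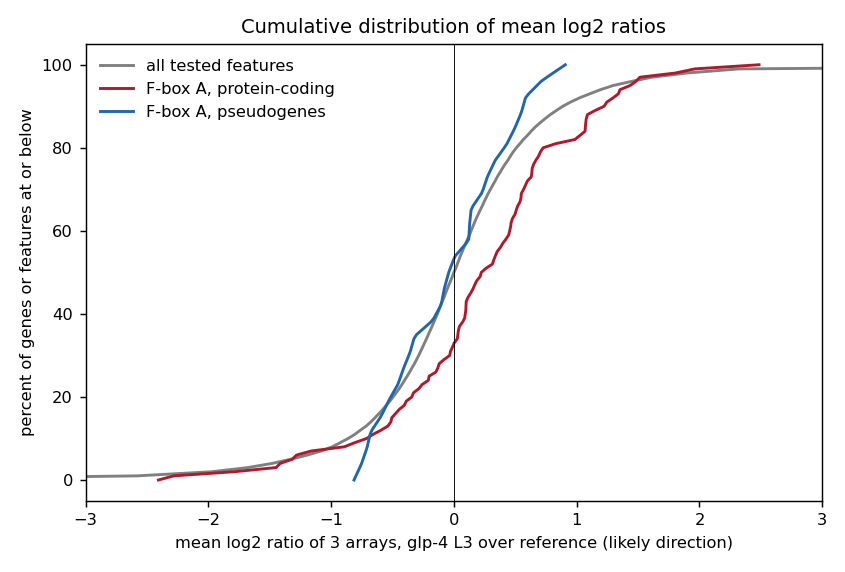
Cumulative percent of genes or features (y axis) at or below a mean log2 ratio of glp-4 L3 over reference (x axis, likely direction, shown from -3 to 3). The curve of the 105 protein-coding F-box A genes (median 0.22) lies to the right of that of all 19580 features (median 0.00) through its middle, and the curve of the 27 pseudogenes (median -0.04) ends at 0.91 on the right.

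Many members are neighbours, and their values were set in chromosome order with the gene order of assembly WBcel235. Genes were taken as neighbours in a run when at most 2 other protein-coding genes or pseudogenes lay between them. In 8 runs 3 or more fbxa genes had a probe, 50 genes in all. Over 54 pairs of successive tested neighbours, 41 had means of the same sign, and the median size of the difference between neighbours was 0.45 log2 units. Pairs within a run share genes, and 83 of the 132 means of the class lay above 0. No pairs of fbxa genes that are not neighbours were set beside them, so likeness of neighbours was not tested. Copies that lie side by side are often alike in sequence, so their probes can share signal, and this was not tested.

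In the run from fbxa-55 to fbxa-51, 12 fbxa genes of clone T12B5, all 11 tested genes had means above 0 and 4 passed. The 4 were fbxa-59 and fbxa-60, which are adjacent fbxa genes, and fbxa-54 and fbxa-51 at the far end. The values of fbxa-54 (T12B5.2) were 1.15, 1.09 and 0.97, with a mean of 1.07 ± 0.09 (limma adjusted p = 0.0131). The 7 genes that did not pass included fbxa-56 (T12B5.7), at 0.90, 0.46 and 0.55, fbxa-10 (T12B5.3), at 0.34, 0.44 and 0.57, and fbxa-67 (T12B5.11), at -0.01, 0.56 and -0.19. The 4 tested genes between fbxa-60 and fbxa-54 had means of 0.12, 0.23, 0.55 and 0.45. The means stayed above 0 for 11 of 11 without prep 1 and without prep 4, and for 9 of 11 without prep 3.

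The run from fbxa-161 to fbxa-160, 9 genes of clone C08E3, changed sign along its length. Its first 5 members, fbxa-161 to fbxa-165, had means of -0.71, -0.36, -0.85, -1.82 and -0.91, and fbxa-163 and fbxa-164 passed as lower. The next gene, fbxa-166, was higher at 1.97, and fbxa-158, fbxa-159 and fbxa-160 followed at 0.60, 0.55 and 0.09. Between fbxa-165 and fbxa-166 the means differed by 2.88 log2 units, the largest step between neighbours in the class. On each of the 3 arrays all 5 of the first genes were below 0 and fbxa-166 and fbxa-158 were above it. The 5 and 4 genes on either side of 0 were the same in number without any single prep.

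Pairs of neighbours outside these runs were of both kinds. In clone C06H5, fbxa-156 was higher at 1.46 and its neighbour fbxa-157 was at 0.14, -0.77 and -0.69 without passing. In clone Y102A5C, fbxa-206 and fbxa-207 were both lower. In clone Y113G7B, fbxa-116 (Y113G7B.1) was higher at 0.69, 1.20 and 1.32 (limma adjusted p = 0.0232), and its neighbour fbxa-115 had a mean of 1.24 without passing.

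A large run from fbxa-21 to fbxa-14 held 29 fbxa genes, of which 7 had a probe. The 6 tested genes had means between 0.10 and 1.35, all above 0, and fbxa-31 passed. The gene fbxa-151 (ZC47.7), the only member with a missing value, was at 1.85 with prep 1 and 1.59 with prep 3. It was not tested in the main fit, although it entered the fit without prep 4. Together with it, 6 of the 7 genes had values above 0 on each array that measured them. In this run fbxa-32, fbxa-31, fbxa-29, fbxa-30 and fbxa-37 were highest on prep 4. In the run from fbxa-185 to fbxa-134, none of the 6 tested genes passed by limma. Their means ran from -0.04 to 0.91. Of these, fbxa-187, fbxa-188, fbxa-189 and fbxa-134 were near 0 to 0.22 with prep 1 and above 0.5 with preps 3 and 4. The runs not drawn went both ways. From fbxa-139 to fbxa-153 all 3 tested genes had means below 0 and none passed. From fbxa-191 to fbxa-108, 1 of 5 lay above 0 and 4 below, and fbxa-108 passed as lower. From fbxa-7 to fbxa-39, 2 means were above 0 and 2 below, and from fbxa-110 to fbxa-112, 4 were above and 1 below, with none passing.

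**Figure D3:**
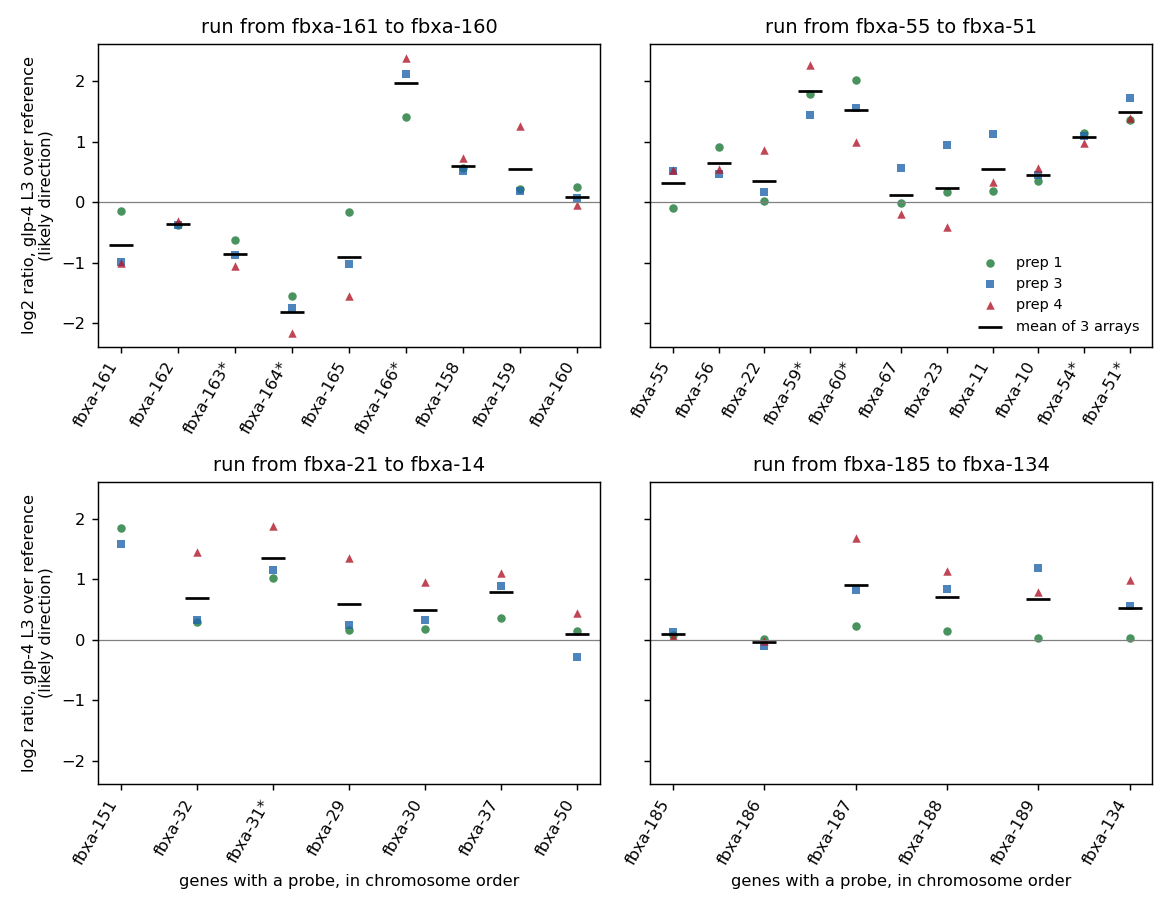
Log2 ratio of glp-4 L3 over reference (y axis, likely direction) for F-box A genes with a probe in 4 runs of neighbours, in chromosome order (x axis, not to scale). Coloured points are the 3 arrays, black dashes are means of genes measured on all 3, and an asterisk marks a limma adjusted p under 0.05. In the run from fbxa-161 to fbxa-160 the first 5 means lie below 0 and the next 4 above, and in the run from fbxa-55 to fbxa-51 all 11 lie above.

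Probes of the same gene gave a measure of the error beyond that between arrays. For 10 genes with 2 probes, the means of the probes differed by 0.05 to 1.83 log2 units, with a median of 0.56, and in 3 genes they had opposite signs. The widest gap was in fbxa-154 (B0391.6), where 1 probe was at 0.02, 0.85 and -0.31 on preps 1, 3 and 4 and the other at -1.42, -1.28 and -2.25. The second probe passed on its own (limma adjusted p = 0.0131), and the gene's average did not. In fbxa-111 (Y102A5C.14) the probes were at -0.14 and 0.16 with prep 3 and at 3.53 and -0.43 with prep 4. Of the genes that passed, fbxa-105 was the only one with 2 probes. Over preps 1, 3 and 4 the first fell, at 1.36, 1.15 and 0.71, and the second rose, at 0.73, 1.80 and 2.39. Their means were 1.07 and 1.64, and both probes passed on their own. Of the 27 calls, 26 thus rest on a single probe.

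Other genes of the ligase pathway were read from the same fit, in which 8.26% of all features were higher and 8.37% lower by adjusted p. These shares do not apply to the counts at an unadjusted p. The F-box B class had 2 of 82 genes lower and none higher in limma, beside 16 lower and 0 higher at an unadjusted p under 0.05. Its median log2 ratio was -0.15. Those that passed were fbxb-66 (-0.97 ± 0.36) and fbxb-9 (-0.92 ± 0.34). In the F-box C class 5 of 39 genes rose and 5 fell, and the median was 0.07. The highest of its genes that passed were fbxc-58 (1.43 ± 0.45), fbxc-4 (0.95 ± 0.14) and fbxc-3 (0.94 ± 0.27), and the lowest were fbxc-44 (-2.26 ± 1.19), fbxc-50 (-1.20 ± 0.29) and fbxc-47 (-1.16 ± 0.39). For the F-box A class the median was 0.15 and 17 of 132 were higher. Differences between the classes were not tested. Without prep 1 the F-box B class had 2 higher and 10 lower genes and the F-box C class 7 and 5. Neither class had a gene past the threshold without prep 3 or without prep 4.

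Of 10 F-box genes outside these classes, with functions known from other work, 5 were lower and 1 was higher. The median of the 10 was -0.84. The gene fog-2, which lends its name to the FTH domain of the fbxa proteins, was at -0.93, -2.63 and -3.27 on preps 1, 3 and 4 (mean -2.27 ± 1.21, limma adjusted p = 0.0289). Its close relative ftr-1 was at -2.22, -1.90 and -2.07 (limma adjusted p = 0.00355), and as near copies the pair may share signal. The gene skpt-1, the worm relative of SKP2, was at -1.68, -1.84 and -2.46 (limma adjusted p = 0.0061). The other lower ones were prom-1 (-1.66 ± 0.10), which acts in meiosis, and fsn-1 (-1.27 ± 0.12), known from synapse formation. The higher one was dre-1 (0.86 ± 0.36), which acts in the timing of larval development. The germ line marker list was at a median of -2.73 on the same arrays, and its part in these values was not tested. Leaving out prep 1 gave 5 lower and 1 higher genes, leaving out prep 3 gave 1 and 0, and leaving out prep 4 gave 4 and 0.

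Among adaptors, 7 of 16 SKP1-related genes were lower and 1 was higher, and the list's median was -0.55. The lowest were skr-8 (-2.32 ± 0.46), skr-2 (-1.95 ± 0.19) and skr-9 (-1.92 ± 0.31). The higher one was skr-3, an adaptor of CUL-6, at 1.75, 1.12 and 1.93 (limma adjusted p = 0.0101). Without prep 3 no SKP1-related gene passed, beside 7 lower and 1 higher at an unadjusted limma p under 0.05, and without prep 4, 3 were lower and 1 higher.

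The scaffold and RING subunits followed. Of 7 cullin and RING genes 1 was lower and none was higher in limma, with 2 lower and 1 higher at an unadjusted p under 0.05. The median of these genes was -0.04. The cullin gene cul-1, whose product is the scaffold of SCF ligases, was at -0.22, 0.24 and 0.04, with a 95% interval of -0.43 to 0.47. The gene rbx-2 was lower at -0.72 ± 0.13. The gene cul-6 was at 0.16, 1.00 and 1.54 and did not pass (limma adjusted p = 0.0943). In the list of the CUL-6 ligase and its pals regulators, 6 of 10 genes were tested, of which skr-3 was higher, pals-22, a repressor of the response to intracellular pathogens, was lower (-0.93 ± 0.30, limma adjusted p = 0.0314), and cul-6, fbxa-158, skr-5 and pals-5 did not pass. The last 2 had means of -0.55 and -0.30. The calls of rbx-2 and pals-22 were lost without prep 3 and without prep 4. Without prep 1, 1 cullin or RING gene was higher, and 2 genes of the CUL-6 list were. The MATH and BATH domain genes are another expanded class, of which the BATH proteins are adaptors of CUL-3. In it 11 of 71 genes were higher (15.5%) and 12 lower (16.9%), against 8.26% and 8.37% of all features. The median of the pooled list was 0.21. All of those higher were math genes, and all of those lower but math-34 (-1.13) were bath genes. The share of each kind that passed is not given apart, and the difference between math and bath genes was not tested. The highest that passed were math-4 (1.52 ± 0.56), math-20 (1.36 ± 0.32) and math-26 (1.30 ± 0.43), and the lowest bath-41 (-1.92 ± 0.26), bath-5 (-1.87 ± 0.36) and bath-27 (-1.77 ± 0.70). Leaving out prep 1 gave 18 higher and 17 lower, leaving out prep 3 gave 0 and 2, and leaving out prep 4 gave 1 and 3.

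**Figure D4:**
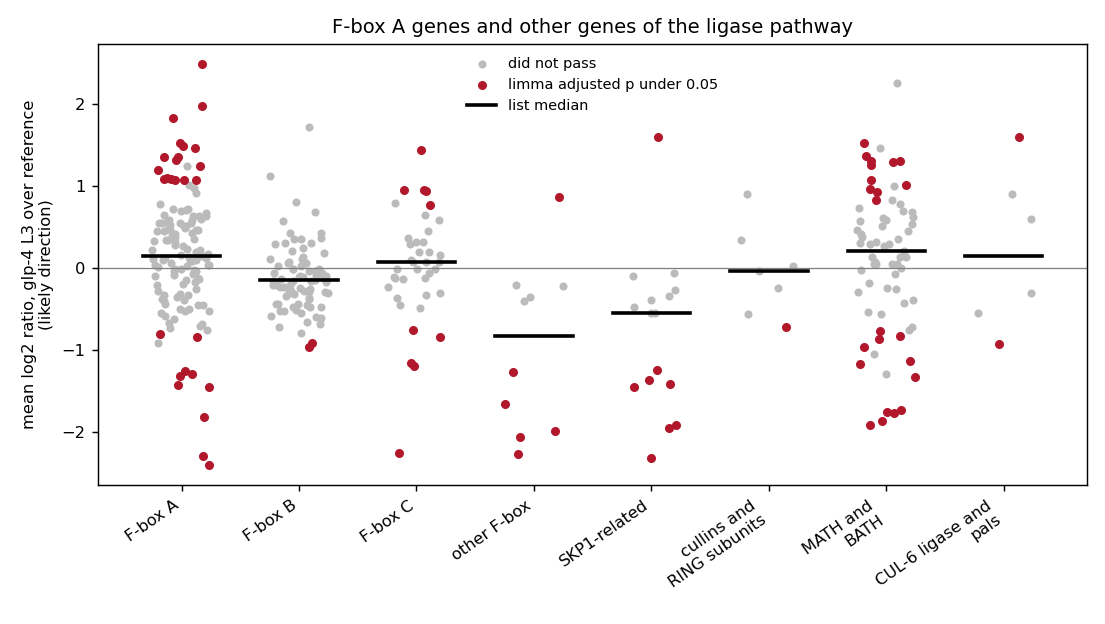
Mean log2 ratio of glp-4 L3 over reference (y axis, likely direction) for each tested gene of the F-box A class and of 7 other lists (x axis). Red points passed at a limma adjusted p under 0.05, grey points did not, and black lines are list medians: 0.15 for F-box A, -0.15 for F-box B, 0.07 for F-box C, -0.84 for other F-box genes and -0.55 for SKP1-related genes.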

How the data were processed

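Values for 21632 probes on 3 arrays, as deposited by the authors, are log2 ratios between the channels, judged from the numbers alone: on each array, 100% of the ratios under 1 come back as numbers with 3 decimals when the log is undone (within 0.01 of the last decimal). How the scans were background-corrected and normalized is not given in the sources used here. Spot intensities were not used here, so probes near background could not be set apart. The deposited medians are -0.0072, -0.025 and -0.026 on preps 1, 3 and 4; how the arrays were centred and the direction of the ratio are not stated. Per the labels, channel 1 holds the reference RNA and channel 2 the mutant RNA. Gene names come from the platform annotation, updated through RefSeq for assembly WBcel235. No fbxa symbol changed. Coordinates are left out because the probes name no build.

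Each array was centred on its median, probes of a gene were averaged, and 19580 features measured on all 3 arrays were fitted in limma 3.58.1 under R 4.3.3 (lmFit, then eBayes, mean against 0), with Benjamini-Hochberg adjusted p-values and a threshold of 0.05. The reference is a single control RNA, so its own spread is left out. The number of arrays limits the precision. The members and lists were chosen with earlier results of these data known. Named genes were up to 12 passing fbxa genes in each direction, the 6 highest and 6 lowest that did not pass, the 4 largest SDs, fbxa-75 and fbxa-158, neighbours of passing genes, and up to 3 passing genes of each list in each direction. The genes fbxa-145, fbxa-111, fbxa-151 and genes of runs or lists that did not pass were named after their values were seen.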

Additional observations from a re-analysis of the deposited data

How the results depend on the processing

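The 17 higher and 10 lower fbxa genes changed by over 1.5 times under some settings. Array quality weights gave 40 and 26 (3938 and 4161 features). A 2-fold limit gave 0 and 0 (157 and 178 features). Leaving out a replicate gave 1 to 32 higher and 0 to 18 lower fbxa genes, 174 to 3211 higher and 212 to 3464 lower features, and 0 to 30 higher and 3 to 47 lower genes of the pathway lists, from 18 and 33 with all preps. The lowest counts were without replicate 3 and the highest without replicate 1. The fbxa counts stayed within 1.5 times with values as deposited, scaling to 1 median absolute deviation, quantile normalization and 2 arrays as the minimum. They also did with each probe alone, the median over probes and a robust prior. Current symbols could not change the members, because no fbxa symbol differed. The median absolute deviation scaling, at 16 and 10, kept 24 of the 27 calls, with fbxa-60 and fbxa-156 among those lost. The fbxa median lay between 0.12 and 0.19 in these settings and when a replicate was left out, where it was recomputed. Of the named fbxa genes, fbxa-196, at 0.71 with all preps, lay between -0.0077 (without replicate 4) and 1.13 (without replicate 1) when a replicate was left out, and fbxa-154 turned from -0.73 to 0.18 by 1 of its probes. The cause of these changes was not tested. The split of the arrays by the letters and date of their titles, whose meaning is not stated, could not be fitted as a random block, because duplicateCorrelation returned no value for 3 arrays. No paired analysis was possible because there is a single group.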

Other observations

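The 2 probes shared by a pair of fbxa genes were left out of the counts. The probe of fbxa-94 and fbxa-95 was at 0.19, -0.10 and 0.46 on preps 1, 3 and 4, and that of fbxa-194 and fbxa-118 at -0.37, -0.25 and 0.14. Neither kept the same sign on all 3 arrays. In fbxa-102, which did not pass, the 2 probes were both at -0.01 with prep 1 and at 2.84 and 0.61 with prep 4.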
